A study of Bubalus bubalis with 36 samples.

Results

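miR-9-5p (bta-miR-9-5p in the deposited table, which uses bovine names), miR-218 (bta-miR-218) and miR-138 (bta-miR-138) are 3 of the 1682 small RNA features counted in buffalo fat, and all 3 were among the 667 features that passed the filter on low counts. They were chosen by name, because earlier results from these same counts had them higher in visceral than in subcutaneous fat, and because each is best known from nervous tissue. The data left unused by that choice are how the 3 miRNAs divide among the visceral depots and among the subcutaneous depots. Small RNA of Bubalus bubalis was sequenced from 6 animals, each sampled at the same 6 depots, for 36 libraries. The visceral depots were pericardial (PCAT), perirenal (PRAT) and omental (OAT) adipose tissue, and the subcutaneous depots were inguinal (IAT), sternal (SSAT) and back (BSAT) adipose tissue. All 6 animals shared the same husbandry, with weaning at 3 months, fattening from 15 months and slaughter at 20 months, and no group received a treatment. A library is named by its depot and animal, so PRAT3 is the perirenal library of animal 3.

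MicroRNAs are short RNAs that guide Argonaute proteins to messenger RNAs and lower their translation or stability. In mouse and other vertebrates miR-9 is abundant in neural progenitors and acts in neurogenesis. miR-218 lies in introns of the genes for the axon guidance ligands SLIT2 and SLIT3 in human and mouse, and it is enriched in mouse motor neurons. miR-138 restrains the growth of dendritic spines in rat neurons, and in human mesenchymal stem cells it holds back adipocyte and osteoblast differentiation. White adipose tissue holds, beside adipocytes, sympathetic nerve fibres, vessels, stromal cells and leukocytes, and visceral depots are covered by mesothelium.

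Library totals ran from 9484589 to 13920998 counts, with a median of 12525362. Levels are given as CPM, the count scaled to a common library total with TMM factors, and a mean carries its SD. The genes that define adipocytes are messenger RNAs and were not measured in these libraries. miR-218 averaged 75.6 CPM over the 36 libraries and ranked 171 of 667 features by mean level, with 135 to 4171 counts a library. miR-9-5p averaged 15.6 CPM at rank 256, with 20 to 904 counts, and miR-138 averaged 13.7 CPM at rank 261, with 7 to 1259 counts. No other arm of the 3 precursors stood in the table. The library names in the labels carry a letter, A on 8 libraries and B on 28, whose meaning the labels do not give. Of the 8 letter A libraries, 7 were visceral (PCAT2, PCAT5, PRAT1, PRAT2, PRAT4, OAT4 and OAT6) and 1 was subcutaneous (BSAT4), so letter and depot overlap in part.

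The contrast that chose the 3 miRNAs is given as a description, with no test. miR-9-5p averaged 26.3 ± 18.2 CPM in 18 visceral libraries and 4.84 ± 3.10 CPM in 18 subcutaneous libraries (SD). miR-218 averaged 108.0 ± 68.6 CPM in visceral and 43.2 ± 40.4 CPM in subcutaneous libraries. miR-138 averaged 19.3 ± 23.1 CPM in visceral and 8.01 ± 16.5 CPM in subcutaneous libraries. The fitted log2 differences, visceral minus subcutaneous, were 2.27 for miR-9-5p, 1.30 for miR-218 and 1.60 for miR-138. In that contrast 110 of 667 features were called by edgeR (16.5%), and 62 (9.3%) were called higher in visceral fat. The spread within a class was wide, with a 15.1-fold range for miR-9-5p and a 13.9-fold range for miR-218 over the visceral libraries, which is where the depots come in.

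**Figure D1:**
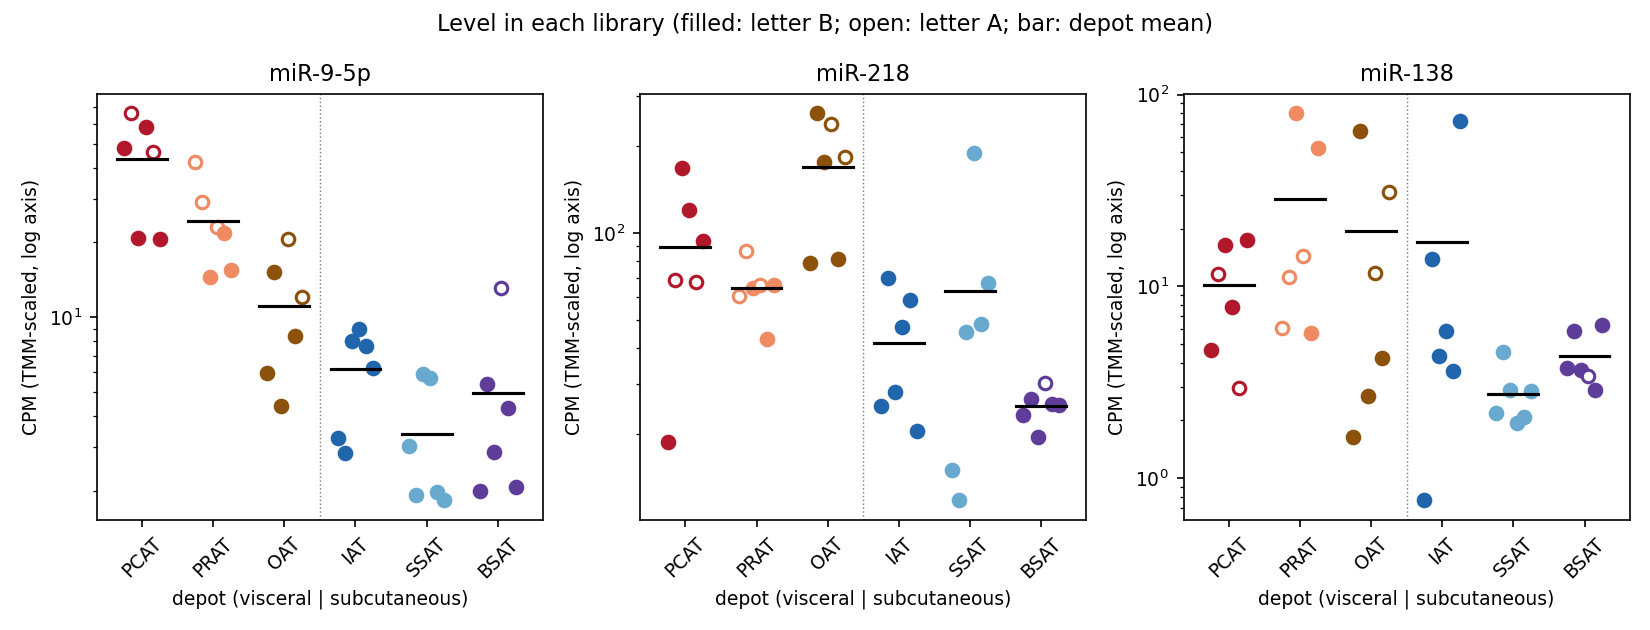
Level of each miRNA in each of the 36 libraries, in TMM-scaled CPM on a log axis, by depot, with visceral depots left of the dotted line; open circles are letter A libraries, filled circles letter B, and bars are depot means. miR-9-5p is highest in PCAT (mean 43.4 CPM), miR-218 in OAT (170.0 CPM), and miR-138 has its highest mean in PRAT (28.4 CPM) with single high libraries in PRAT, OAT and IAT.

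Each of the 3 miRNAs had its highest mean in another visceral depot. PCAT held 55.0% of the summed visceral means of miR-9-5p, with 30.9% in PRAT and 14.1% in OAT. For miR-218 the shares were 27.7% in PCAT, 19.9% in PRAT and 52.5% in OAT. For miR-138 they were 17.5% in PCAT, 49.1% in PRAT and 33.5% in OAT. In a test of any difference among the 3 visceral depots, 13 of 667 features were called (1.95%; 26 with the animal as a block) by edgeR's quasi-likelihood test with Benjamini-Hochberg adjustment at 0.05. miR-9-5p was among them (adjusted p = 0.0406), at rank 12 by p. miR-218 (adjusted p = 0.199, rank 55) and miR-138 (adjusted p = 0.593, rank 232) were not called by the same edgeR test. In bulk tissue, fewer cells of a type and less RNA per cell cannot be told apart in any of these levels.

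miR-9-5p had its highest mean in pericardial fat. In PCAT it measured 20.7 CPM at the lowest, 47.1 CPM at the median and 66.4 CPM at the highest. PRAT libraries held 14.6, 22.5 and 42.05 CPM at the same 3 points, and OAT libraries 4.39, 10.2 and 20.6 CPM. All 6 PCAT libraries lay above all 6 OAT libraries, though only just, with PCAT6 at 20.7 and OAT4 at 20.6 CPM, whereas PRAT overlapped both neighbours. Of 667 features, 8 had PCAT wholly above OAT in this way (1.2%). The means were 43.4 ± 19.0 CPM in PCAT, 24.4 ± 10.2 CPM in PRAT and 11.1 ± 6.11 CPM in OAT (SD, n = 6 each). The fitted difference of PCAT minus OAT was 1.96 ± 0.47 (log2, SE; 95% interval 1.01 to 2.92), or 3.90-fold, and it was called by edgeR (adjusted p = 0.0230). That comparison called 6 of 667 features (0.9%; 24 with the animal as a block), 1 of them higher in PCAT (0.15%), and that 1 was miR-9-5p. The other 5 (0.75%), all lower in PCAT, were miR-10a, miR-10b, miR-196a, miR-615 and a candidate locus without a miRNA name.

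The step from PCAT to PRAT was smaller. PCAT minus PRAT was 0.83 ± 0.45 (log2, SE; 95% interval −0.09 to 1.75) and was not called by edgeR (adjusted p = 0.376), in a comparison with 14 calls (2.1%; 26 with the animal as a block). PRAT minus OAT was 1.13 ± 0.46 (95% interval 0.20 to 2.06), with an unadjusted p of 0.0179 and an edgeR adjusted p of 0.783, where 3 features were called (0.45%) and 35 had an unadjusted p under 0.05 (5.25%). Neither step passed the test across all features, and neither interval shows that the neighbouring depots held the same level.

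Within animals the order was the same each time. PCAT exceeded PRAT by 0.19 to 1.33 on the log2 CPM scale in 6 of 6 animals, as it did for 42 of 667 features (6.3%). PCAT exceeded OAT by 0.77 to 2.98 in 6 of 6 (5.4% of features), and PRAT exceeded OAT by 0.16 to 2.79 in 6 of 6 (1.8%). PCAT held the highest visceral level in 6 of 6 animals with TMM factors, and in 5 of 6 animals with DESeq2's size factors. Over all features, 12 of 667 had PCAT as the highest visceral depot in 6 of 6 animals (1.8%), and 54 in at least 5 of 6 (8.1%). Beside miR-9-5p these were miR-655, miR-381, miR-3600, miR-411c-5p, miR-95, miR-369-3p, miR-302b, miR-338, miR-2285bb, miR-411b and 1 candidate locus. They include several miRNAs of the imprinted cluster on the DLK1-DIO3 locus of mammals (miR-655, miR-381, miR-411 and miR-369) and miR-338, an oligodendrocyte miRNA in mouse.

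**Figure D2:**
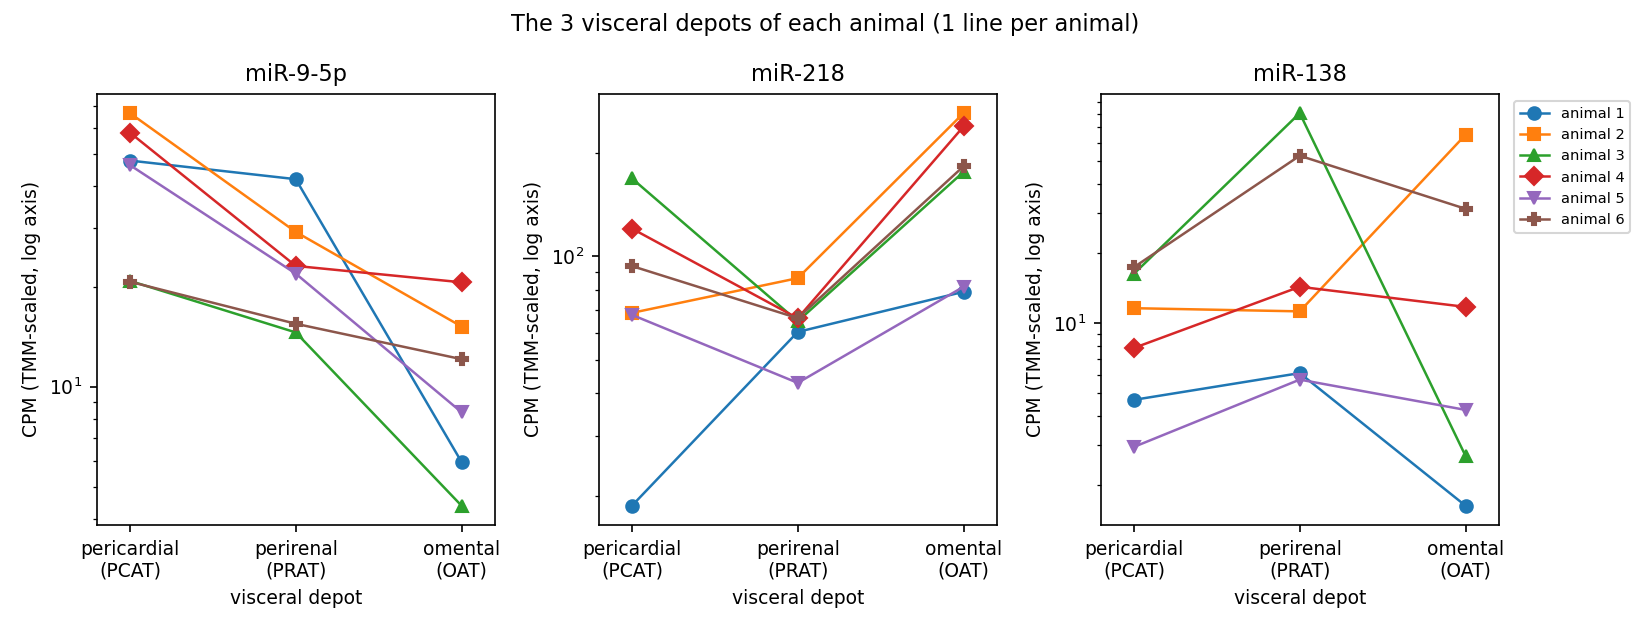
Level of each miRNA in the 3 visceral depots of each animal, in TMM-scaled CPM on a log axis, with 1 line per animal. The miR-9-5p lines descend from PCAT over PRAT to OAT in 6 of 6 animals, the miR-218 lines peak in OAT in 6 of 6, and the miR-138 lines peak in PRAT in 5 of 6, with animal 2 peaking in OAT.

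The pericardial lead of miR-9-5p kept its direction with any 1 library left out, at 1.68 or more on the log2 scale, but the call did not hold throughout. PCAT minus OAT was no longer called by edgeR without any 1 of 8 libraries, PCAT1, PCAT2, PCAT4, PCAT5, OAT1, OAT3, OAT5 or OAT6 (log2 1.68 to 1.85, adjusted p = 0.0588 to 0.101). The call over the 3 visceral depots was lost without any 1 of 33 libraries (adjusted p = 0.0519 to 0.152). With 1 animal left out, PCAT minus OAT was not called in 4 of 6 runs, those without animal 1, 2, 3 or 5. There it was 1.75 to 1.96 on the log2 scale (edgeR adjusted p = 0.0599 to 0.182). The call over the 3 visceral depots was lost in 6 of 6 such runs (edgeR adjusted p = 0.052 to 0.264).

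Within each of the 4 depots that held both letters, the median of miR-9-5p was higher in letter A than in letter B libraries. In PCAT the letter A libraries ran from 46.35 to 66.4 CPM and the letter B libraries from 20.7 to 58.0 CPM. In PRAT they ran from 23.1 to 42.05 CPM against 14.6 to 21.9 CPM, and in OAT from 12.1 to 20.6 CPM against 4.39 to 15.2 CPM. The letter A library BSAT4 held 13.1 CPM and the other BSAT libraries 2.00 to 5.37 CPM. With depot held, letter A minus letter B was 1.04 ± 0.28 (log2, SE), just short of a call by edgeR (adjusted p = 0.0528), while 7 of 667 features were called (1.05%) in a test added after the data were seen. For miR-218 that difference was 0.15 ± 0.37 and for miR-138 it was −0.77 ± 0.63. The pericardial difference was as large within letter B, where PCAT minus OAT was 2.01 from 4 libraries of each depot but not called by edgeR (adjusted p = 0.0671), and with the letter as a covariate it was 2.02 (edgeR adjusted p = 0.00256).

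In subcutaneous fat miR-9-5p was low everywhere. IAT held 2.85, 6.95 and 8.97 CPM at the lowest, median and highest library, SSAT 1.83, 2.51 and 5.93 CPM, and BSAT 2.00, 3.59 and 13.1 CPM. The ranges overlapped one another, and 3 of the 6 OAT libraries lay within the IAT range. The means were 6.17 ± 2.57 CPM in IAT, 3.40 ± 1.92 CPM in SSAT and 4.96 ± 4.22 CPM in BSAT (SD, n = 6 each). IAT exceeded SSAT in 6 of 6 animals (3.15% of features), by 0.86 ± 0.46 in the fit (log2, SE), but edgeR did not call it (adjusted p = 0.473). Across the 3 subcutaneous depots edgeR called 4 features (0.6%; 7 with the animal as a block), and miR-9-5p was not among them (adjusted p = 0.620). The order of means over the 6 depots was PCAT, PRAT, OAT, IAT, BSAT and SSAT, and the libraries of each depot overlapped those of the next.

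miR-218 was highest in omental fat. It measured 78.9 CPM at the lowest, 180 CPM at the median and 261 CPM at the highest OAT library. PCAT libraries held 18.8, 81.1 and 169 CPM, and PRAT libraries 42.8, 65.4 and 86.4 CPM. OAT overlapped PCAT widely, while only PRAT2, at 86.4 CPM, exceeded OAT1 and OAT5, at 78.9 and 81.6 CPM. The means were 89.6 ± 51.3 CPM in PCAT, 64.4 ± 14.0 CPM in PRAT and 170.0 ± 76.7 CPM in OAT (SD, n = 6 each). PRAT minus OAT was −1.40 ± 0.48 (log2, SE; 95% interval −2.39 to −0.41), with an unadjusted p of 0.00646 at rank 7 of 667. After adjustment edgeR did not call it (adjusted p = 0.616). PCAT minus OAT was −0.92 ± 0.48 (95% interval −1.90 to 0.05; edgeR adjusted p = 0.424) and PCAT minus PRAT was 0.48 ± 0.47 (95% interval −0.49 to 1.45; edgeR adjusted p = 0.678).

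The levels of miR-218 within animals are given as a description, with no test. OAT held the highest visceral level in 6 of 6 animals with TMM factors, and in 5 of 6 animals with library totals alone. PCAT minus OAT ran from −2.06 (animal 1) to −0.06 (animal 3) on the log2 CPM scale, below 0 in 6 of 6 animals as for 18 of 667 features (2.7%). PRAT minus OAT ran from −1.85 to −0.39, likewise below 0 in 6 of 6 (1.05%). miR-218 was the only 1 of 667 features (0.15%) with OAT as the highest visceral depot in 6 of 6 animals under TMM factors, and 11 features (1.65%) reached at least 5 of 6. How many of the 667 features chance alone would place there was not tested. No miR-218 comparison within a class was called under any alternative run, with adjusted p for PRAT minus OAT between 0.211 (edgeR without animal 1) and 0.953 (limma) and log2 differences between −1.59 and −1.24.

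Among subcutaneous depots miR-218 was most even in BSAT, with 19.6, 25.4 and 30.2 CPM at the lowest, median and highest library, a range of 1.54-fold. IAT held 20.5, 37.6 and 70.1 CPM. SSAT held 11.8, 46.9 and 189 CPM, a 16.0-fold range, and SSAT4 stood far above the next SSAT library at 67.1 CPM. The means were 41.6 ± 20.2 CPM in IAT, 62.8 ± 65.4 CPM in SSAT and 25.1 ± 3.51 CPM in BSAT (SD, n = 6 each). SSAT minus BSAT was 1.32 ± 0.48 (log2, SE; edgeR adjusted p = 0.228), in a comparison with 2 calls (0.3%; 6 with the animal as a block), and it was 0.59 without SSAT4. IAT minus SSAT was −0.59 ± 0.48 (edgeR adjusted p = 0.669) and changed sign to 0.15 without SSAT4. In the order of means, which ran OAT, PCAT, PRAT, SSAT, IAT and BSAT, the libraries of each depot overlapped those of the next, and PRAT and SSAT lay side by side at 64.4 and 62.8 CPM.

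miR-138 had its highest visceral mean in perirenal fat, and this rested on few libraries. PRAT libraries measured 5.72 CPM at the lowest, 12.8 CPM at the median and 80.4 CPM at the highest, against 2.93, 9.72 and 17.4 CPM in PCAT and 1.64, 7.998 and 64.9 CPM in OAT. The 3 ranges overlapped, and the medians lay closer together than the means of 10.1 ± 6.02 CPM in PCAT, 28.4 ± 30.98 CPM in PRAT and 19.4 ± 24.9 CPM in OAT (SD, n = 6 each). PCAT minus PRAT was −1.49 ± 0.82 (log2, SE; 95% interval −3.16 to 0.19; edgeR adjusted p = 0.376), and it was −0.92 without PRAT3. PRAT minus OAT was 0.55 ± 0.80 (95% interval −1.09 to 2.19; edgeR adjusted p = 0.956) and turned to −0.13 without PRAT3. PCAT minus OAT was −0.94 ± 0.81 (95% interval −2.59 to 0.72; edgeR adjusted p = 0.666), and it was −0.16 without OAT2, −0.55 with the animal as a block and −0.13 with limma. PRAT was the highest visceral depot in 5 of 6 animals, as it was in at least 5 of 6 for 22 of 667 features (3.3%; 0.6% in 6 of 6), and OAT was highest in animal 2. With the animal as a block, PCAT minus PRAT was −1.32 (edgeR adjusted p = 0.262) and PRAT minus OAT was 0.77 (edgeR adjusted p = 0.886). The intervals, from the fit without the block, are too wide to rank the 3 depots.

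**Figure D3:**
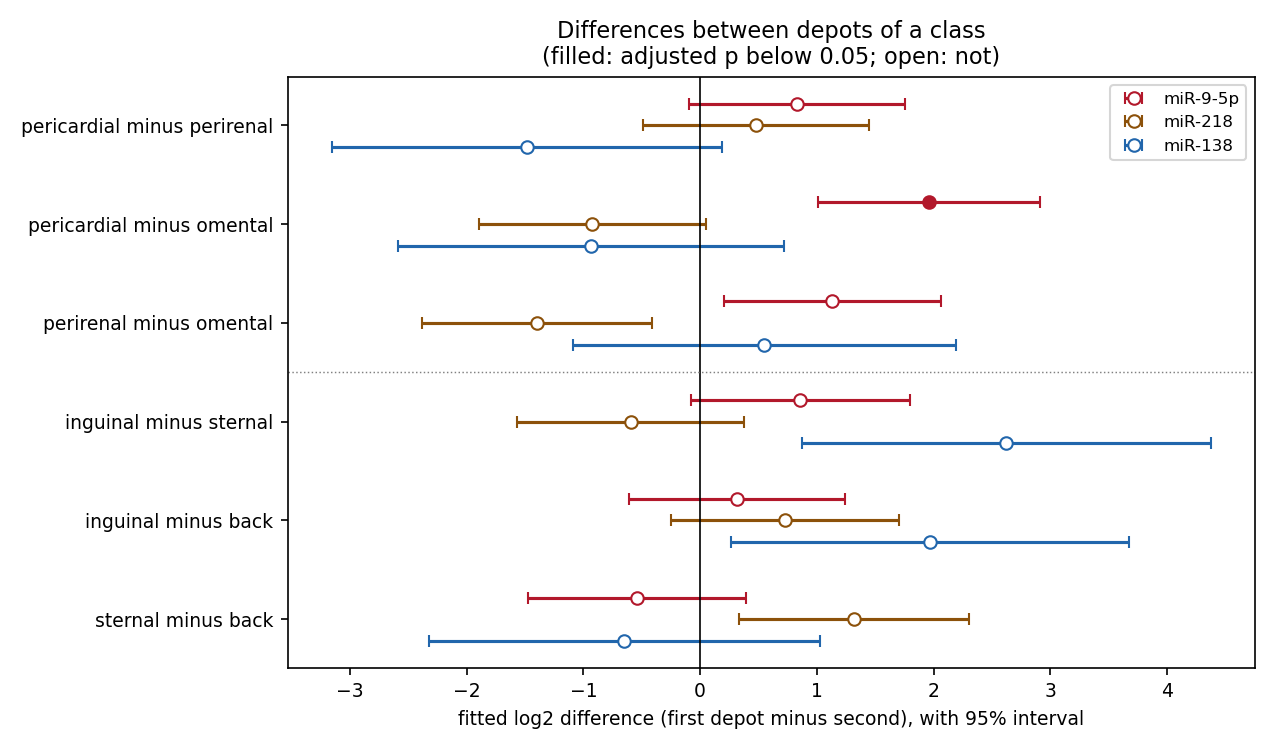
Fitted log2 difference between depots of a class, first depot minus second, with its 95% interval, for miR-9-5p (red), miR-218 (brown) and miR-138 (blue); a filled circle marks an edgeR adjusted p below 0.05. The single filled circle is miR-9-5p in pericardial minus omental fat at 1.96, and the miR-138 intervals are the widest.

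In subcutaneous fat miR-138 was low in SSAT and BSAT and uneven in IAT. SSAT held 1.93, 2.51 and 4.55 CPM at the lowest, median and highest library, and BSAT 2.88, 3.72 and 6.30 CPM. IAT ran from 0.764 over a median of 5.08 to 73.3 CPM, a 95.9-fold range, with IAT6 far above the next library at 13.9 CPM. The means were 17.0 ± 28.0 CPM in IAT, 2.74 ± 0.972 CPM in SSAT and 4.32 ± 1.41 CPM in BSAT (SD, n = 6 each). SSAT minus BSAT ran from −1.11 to −0.33 on the log2 CPM scale, below 0 in 6 of 6 animals (4.35% of features), while the fitted SSAT minus BSAT of −0.65 ± 0.82 (SE) was not called by edgeR (adjusted p = 0.882). IAT minus SSAT was 2.62 ± 0.86 (edgeR adjusted p = 0.142), in a comparison with 4 calls (0.6%; 2 with the animal as a block). It was 1.05 without IAT6 and 1.63 with the animal as a block. IAT minus BSAT was 1.97 ± 0.84 (edgeR adjusted p = 0.486), 0.50 without IAT6 and 0.98 with the animal as a block. In that comparison edgeR called 0 features (0%), with 56 at an unadjusted p under 0.05 (8.4%). DESeq2 and limma also called 0 there. The order of means over the 6 depots was PRAT, OAT, IAT, PCAT, BSAT and SSAT, and the libraries of each depot overlapped those of the next.

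miR-138 differed between animals. Its mean over the 6 depots was 3.19 CPM in animal 1, 18.7 CPM in animal 2, 18.4 CPM in animal 3, 7.52 CPM in animal 4, 3.57 CPM in animal 5 and 30.6 CPM in animal 6. With depot held, the difference among animals was called by edgeR (adjusted p = 0.0143) in a test added after the data were seen, as it was for 78 of 667 features (11.7%), and it was called without IAT6 as well (adjusted p = 0.0368). For miR-9-5p (adjusted p = 0.169) and miR-218 (adjusted p = 0.163) the same edgeR test made no call.

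The libraries with the most miR-138 also had the highest sums of a leukocyte list, though not of every miRNA in it. The 5 libraries with the most miR-138 were PRAT3 at 80.4, IAT6 at 73.3, OAT2 at 64.9, PRAT6 at 52.7 and OAT6 at 31.1 CPM. The same 5 had the highest summed levels of the 6 leukocyte miRNAs, 13980 to 46970 CPM. In the other 31 libraries miR-138 lay between 0.764 and 17.4 CPM and the leukocyte sum between 1559 and 9948 CPM. Most of that sum was miR-150, a miRNA of mature lymphocytes, with 20870 CPM in PRAT3, 22250 CPM in IAT6 and 43380 CPM in OAT6. miR-150 and miR-142-5p each had these 5 as their own highest libraries, and miR-142-3p, miR-146a and miR-155 had 4 of the 5. miR-223, a miRNA of granulocytes and monocytes, had 1 of them, IAT6, and measured 9.26 CPM in PRAT3 and 11.4 CPM in PRAT6, against 62.5 CPM in BSAT2, its highest library. All 6 miRNAs of the list passed the filter and none was called among the visceral depots, where the sum ran from 3075 to 9906 CPM in PCAT, 4719 to 25960 CPM in PRAT and 3209 to 46970 CPM in OAT. The part of leukocytes in the miR-138 levels was not tested.

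**Figure D4:**
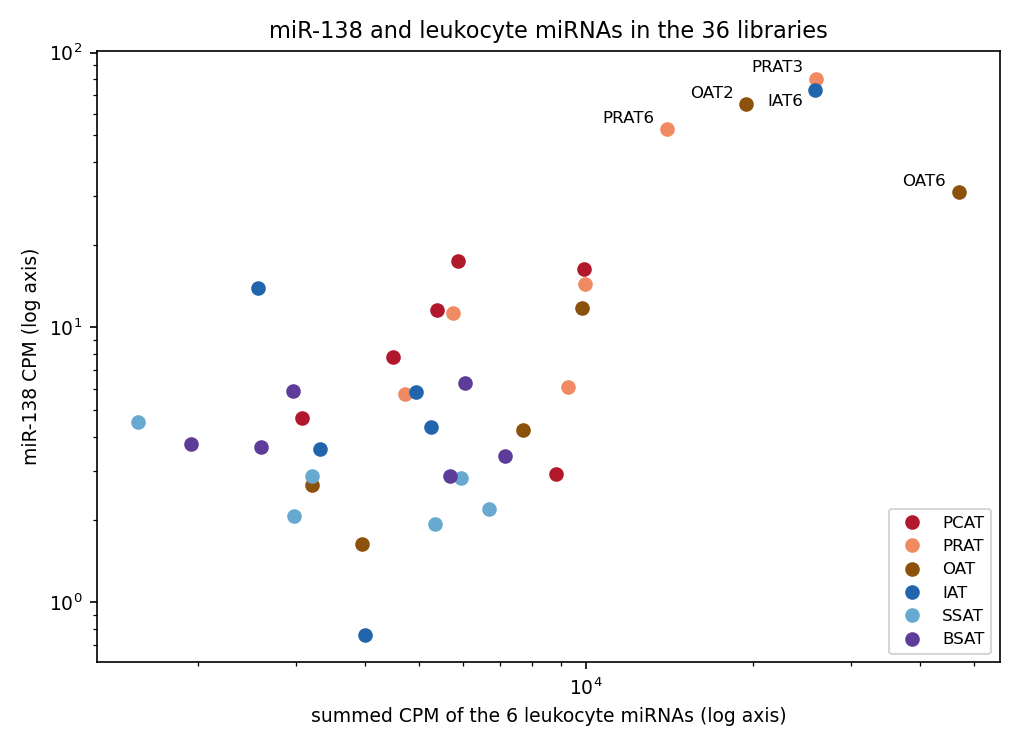
miR-138 level against the summed level of the 6 leukocyte miRNAs in the 36 libraries, both in TMM-scaled CPM on log axes and coloured by depot. The 5 labelled libraries, from 3 depots, have the most miR-138 (31.1 to 80.4 CPM) and the highest leukocyte sums (13980 to 46970 CPM).

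The miRNAs most like each of the 3 were taken by Pearson correlation of log2 CPM over the 36 libraries, among 208 named miRNAs with a mean of at least 10 CPM, as a description, since libraries share animals, depots and scaling. The closest to miR-138 was miR-142-5p, a miRNA of blood cell lineages (r = 0.806, and 0.808 for deviations from the depot means), then miR-32 (r = 0.756) and miR-2284z (r = 0.736). miR-142-5p averaged 11.5 ± 6.81 CPM in PCAT, 17.4 ± 21.3 CPM in PRAT and 32.4 ± 39.8 CPM in OAT (SD). The closest to miR-9-5p were miR-95 (r = 0.695), the epithelial miR-200a (r = 0.629) and miR-376b (r = 0.610), and within depots these dropped to 0.146, 0.0929 and 0.175. miR-95 averaged 102.0 CPM in PCAT, 68.5 CPM in PRAT and 50.6 CPM in OAT, against 59.0 CPM in IAT, 34.3 CPM in SSAT and 42.7 CPM in BSAT. The closest to miR-218 were miR-449a, a miRNA of ciliated epithelium (r = 0.588, and 0.479 within depots), the muscle miRNA miR-499 (r = 0.584 and 0.570) and miR-6123 (r = 0.518 and 0.619). The 3 miRNAs themselves correlated by 0.324 to 0.406 over all libraries, and by 0.00985 to 0.191 within depots.

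Markers of other cell types were summed beside them. The sum of a list of 6 epithelial and mesothelial miRNAs, led by miR-200a, ran from 5.17 to 2816 CPM in visceral and 3.81 to 79.0 CPM in subcutaneous libraries. Of these, 5 passed the filter and were tested, and all 5 were called higher in visceral fat by edgeR. Those calls stand beside 9.3% of all features called higher in visceral fat. In PCAT, the epithelial sum was 5.17 CPM in PCAT1, 82.2 CPM in PCAT4 and 212.5 CPM in PCAT5. It was 331 CPM in PCAT2, 487 CPM in PCAT6 and 506 CPM in PCAT3. In that order of libraries miR-9-5p measured 47.8, 58.0, 46.35, 66.4, 20.7 and 20.8 CPM. In OAT, the highest epithelial sums, 539 CPM in OAT2 and 327 CPM in OAT4, stood with the highest miR-218 levels, 261 and 239 CPM. The lowest sums, 7.72 CPM in OAT3, 7.88 CPM in OAT5 and 9.13 CPM in OAT1, stood with 176, 81.6 and 78.9 CPM of miR-218. OAT6 had a sum of 92.1 CPM and 183 CPM of miR-218. The muscle list, led by miR-1, ran from 83.5 to 303 CPM in PCAT, 55.3 to 1296 CPM in PRAT and 50.8 to 397 CPM in OAT, and the ciliated list, led by miR-449a, from 26.5 to 598 CPM in PCAT, 43.8 to 100.2 CPM in PRAT and 25.5 to 967 CPM in OAT. No miRNA of the muscle, ciliated or epithelial lists was called, and none of the lists for liver, kidney and gut, endothelium, stroma, red blood cells and neuroendocrine cells by edgeR among the visceral depots. The part of these cells in the levels was not tested.

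A list of miRNAs known from neurons and glia placed the 3 beside their class. It names 17 precursors, which gave 20 features in the table, 15 of them tested and 12 besides the 3. None of those 12 was called by edgeR among the visceral depots (1.95% of all features), in any pair of visceral depots or among the subcutaneous depots. Between the classes 2 of the 12 were called, miR-338 higher and miR-132 lower in visceral fat, in the contrast that chose the 3 miRNAs and that called 16.5% of all features. The median log2 difference of the 12 was 0.21 in PCAT minus PRAT, beside 0.02 over all features, and −0.37 in PCAT minus OAT, beside −0.06. The most abundant was miR-7, a neural and neuroendocrine miRNA that ran from 27.5 to 2388 CPM over the 36 libraries, with means of 184 CPM in PCAT, 372 CPM in PRAT and 626 CPM in OAT. miR-124a, a neuron-specific miRNA in mouse, had a mean of 1.84 CPM and was 9.96 CPM at most. Its highest depot mean was 3.95 CPM, in IAT. miR-338 shared the pericardial peak at a low level, with means of 3.54 CPM in PCAT, 1.21 CPM in PRAT and 1.09 CPM in OAT, but edgeR did not call it (adjusted p = 0.124).

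**Figure D5:**
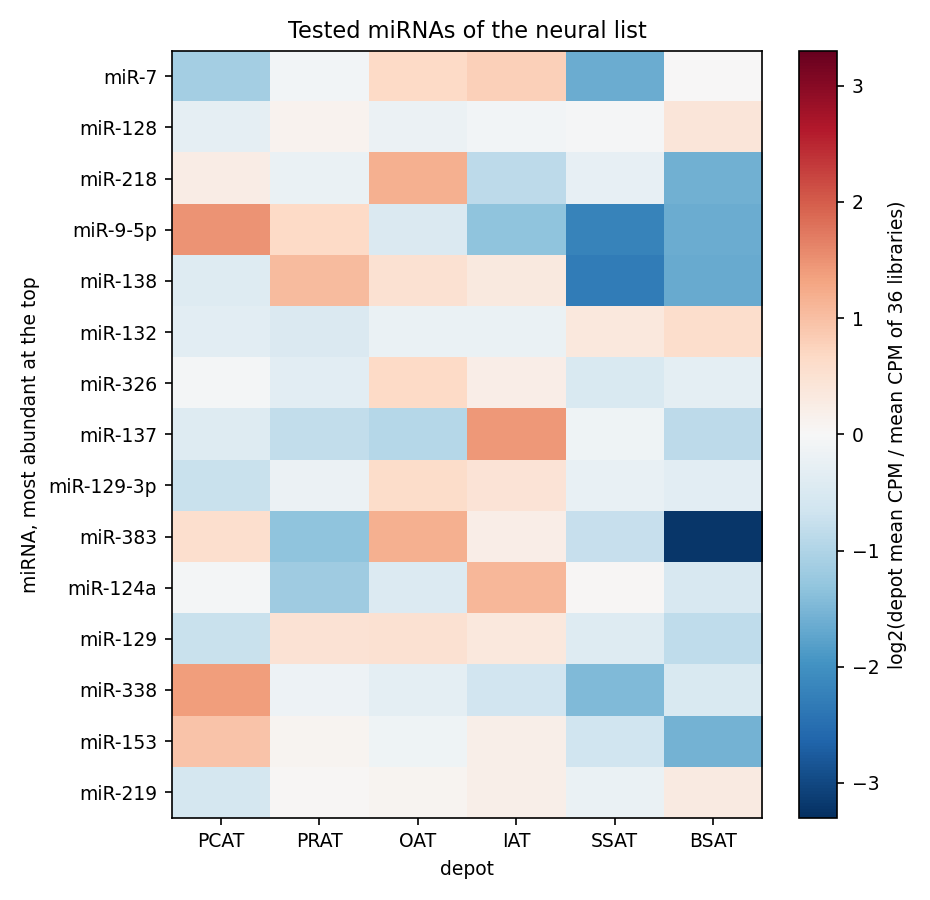
Depot mean of each of the 15 tested miRNAs of the neural list, as log2 of its ratio to the mean CPM of the 36 libraries, with miRNAs from the most abundant at the top to the least and depots from PCAT to BSAT. miR-9-5p, miR-153 and miR-338 are highest in PCAT, and miR-138 in PRAT. Highest in OAT are miR-218, miR-129-3p, miR-129, miR-326 and miR-383. miR-7, miR-124a and miR-137 are highest in IAT, and miR-128, miR-132 and miR-219 in BSAT.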

How the data were processed

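Per the labels' protocols, an RNeasy lipid tissue kit gave the RNA and the TruSeq RNA LT kit v2 the libraries. The authors deposited raw read counts per miRNA and library, and beside them RPM values. The deposited RPM equalled the count over the library total, with a largest difference of 4.79e-06. The submitters' processing notes name DESeq2 1.24.0 without saying what it did. Aligner, miRNA caller and genome build: not given in the sources used here. An unnamed line of the table, with 0 counts, was dropped.

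Counts were tested in R 4.3.3 with edgeR 4.0.16 (robust quasi-likelihood test, two-sided, TMM factors of 0.745 to 1.26, filterByExpr with minimum count 10), with 1 coefficient per depot over all 36 libraries and 30 residual degrees of freedom. p-values were adjusted by Benjamini-Hochberg over 667 features, with a threshold of 0.05. SE is the size of the log2 difference over the square root of F. Log2 CPM used a prior count of 2. Depot and animal came from the labels, and every depot was sampled once in the same 6 animals, which pairs the libraries. Deviations from depot means correlated by 0.198 within animals and −0.0653 across animals (above 0.1 in 64 of 90 within-animal pairs). No 2 libraries agreed within sampling noise (smallest chi-square per degree of freedom 826). The alternatives were DESeq2's size factors (RLE), library totals alone, other filters, the animal block, the letter, the class's own libraries, limma 3.58.1 on log2(RPM + 1), DESeq2 1.42.0, and each animal or library left out. On simulated counts over 654 features, PCAT minus OAT was called for 17.2% of 2-fold and 53.8% of 4-fold changes, and for 0.218% of unchanged features. The simulation drew each library independently and changed PCAT alone. It held no effect of animal or letter, so its rates do not cover data with such effects.

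The miRNAs and the 11 lists were chosen with earlier results of these data known. Named beside the 3 miRNAs were the most abundant miRNA of each list the text describes, those called among visceral depots and the 3 most alike. Features highest in 1 visceral depot in every animal, the other PCAT minus OAT calls, miR-338 and miR-124a were named after their values were seen.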

Additional observations from a re-analysis of the deposited data

Results flagged for a closer look

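Of the 18 groups of 6 libraries made by 3 miRNAs and 6 depots, 4 had a library far from the others of its depot in CPM. The flag used CPM without logs, and how many such flags chance alone gives was not tested. miR-9-5p was 13.14 CPM in BSAT4, against 5.37 CPM in the next BSAT library, and BSAT4 is the single subcutaneous library of letter A. miR-218 was 189.1 CPM in SSAT4, against 67.1 CPM in the next SSAT library. miR-138 was 73.28 CPM in IAT6, against 13.9 CPM in the next IAT library, and IAT6 also had the highest leukocyte sum of its depot, 25920 CPM. miR-138 was 4.55 CPM in SSAT2, against 2.89 CPM in the next SSAT library, and SSAT2 had the lowest leukocyte sum of the 36 libraries, 1559 CPM. The part of letter and leukocytes in these values was not tested.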

How the results depend on the processing

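Of 240 values of the 3 miRNAs under other settings, 230 kept their direction and side of the threshold, as did 952 of 1008 with an animal or a library left out. Most of these results were not called to begin with, so the totals say little about the calls. The miR-9-5p call over the visceral depots was kept in 5 other settings and lost in 5. With an animal or library left out it was kept in 3 runs and lost in 39. Its PCAT minus OAT call was kept in 8 settings and lost in 2, and kept in 30 left-out runs and lost in 12. The cause of each change was not tested. The animal block changed no call (miR-9-5p over the visceral depots, adjusted p = 0.0165; PCAT minus OAT, adjusted p = 0.00947). For miR-9-5p over the visceral depots the edgeR adjusted p was 0.0560 with DESeq2's size factors, 0.0659 with library totals alone, 0.102 with no filter, 0.0902 in letter B alone and 0.0621 from visceral libraries alone. It ran from 0.0302 (without OAT4) to 0.264 (without animal 5) with 1 animal or library left out. Its PCAT minus OAT of 1.945 with no filter (adjusted p = 0.0568) and 2.01 in letter B alone was not called, and it ran from 1.68 (without OAT3) to 2.13 (without animal 6). Its SSAT minus BSAT was 0.0786 in letter B alone, and ran from −0.92 to 0.13 (without BSAT4). For miR-218, IAT minus SSAT ran from −1.05 to 0.15 (without SSAT4). For miR-138, PRAT minus OAT ran from −0.33 (without animal 3) to 1.67 (without animal 2), and DESeq2 called the subcutaneous depots (adjusted p = 0.0303) and IAT minus SSAT (2.53, adjusted p = 0.0207). DESeq2's size factors moved the median of all features to −0.12 in PCAT minus PRAT and to −0.20 in PCAT minus OAT, and library totals to 0.23 in IAT minus SSAT. With all animals and libraries kept, calls over the visceral depots ran from 7 features with no filter to 30 with DESeq2. In PCAT minus PRAT they ran from 9 with no filter to 38 with limma. In PCAT minus OAT they ran from 4 with no filter to 28 with DESeq2. The subcutaneous depots had 2 to 32, IAT minus SSAT 1 to 34 and SSAT minus BSAT 2 to 22, the highest each with DESeq2. The run with no filter tested 1682 features, and DESeq2 and limma tested 667. With 1 animal or library left out, the lowest counts were 6 over the visceral depots and 6 in PCAT minus PRAT. They were 0 over the subcutaneous depots and 0 in SSAT minus BSAT. miR-138 has as few as 7 counts in a library, so its low values carry the largest counting error.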

Other observations

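miR-7, the most abundant miRNA of the neural list, was high in single libraries of several depots, with 2388 CPM in IAT5, 1984 CPM in OAT6, 1338 CPM in OAT4, 1332 CPM in PRAT1, 1244 CPM in BSAT4 and 1010 CPM in IAT3. OAT6, OAT4, PRAT1 and BSAT4 are letter A libraries, and IAT5 and IAT3 are letter B libraries. The rest of the 36 libraries ran from 27.5 to 865 CPM.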
